A study of Mus musculus with 12 samples.

Results

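Integrins, cadherins, desmosomal proteins and other junction and adhesion genes were followed in mouse skin after a thermal injury. Genes were chosen by their annotated symbol alone, as those that begin with Itga, Itgb, Cdh and a digit, Pcdh, Dsg, Dsc, Pkp, Cldn, Ocln, Tjp, Gja, Gjb or Gjc and a digit, Ctnn, Icam, Vcam or Pecam, or that are Dsp, Sele or Selp. Dsc1 and Gjb2 match this pattern and were left out. The rule found 46 of the 5599 genes with a probe set that names 1 symbol, measured by 61 probe sets, and 24 of the 46 were bright enough to be tested. Total RNA from skin was hybridised to 1 Affymetrix array per sample, 12 in all. Skin taken 2 hours, 3 days and 14 days after the injury was set against skin taken at 0 hours, with 3 arrays at each time point. The labels give no strain, age, genotype or body site. They leave unstated if skin at 0 hours had been burnt and if each repeat was its own animal. The p-values therefore rest on the spread between arrays, part of which may be technical.

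Epithelial cells are held together by adherens junctions, where classical cadherins bind catenins and through them actin, and by desmosomes, where desmosomal cadherins, plakophilins and desmoplakin bind keratin filaments. Claudins and Tjp1 form tight junctions, connexins form gap junction channels, and the alpha6 beta4 integrin anchors basal keratinocytes to the basement membrane in hemidesmosomes. In wounded skin, endothelial selectins, Icam1 and Vcam1 are known to catch leukocytes, which bind through beta2 and alpha4 integrins before they leave the vessel, while keratinocytes loosen, migrate and rebuild their junctions.

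All values are the deposited signal intensity of a probe set on a linear scale. Changes are differences of mean log2 intensity with their standard error from 1 limma fit over 12 arrays, and a call means a p under 0.05 after Benjamini-Hochberg adjustment over the 3477 genes tested. Values under 225.375, the pooled lower quartile, were raised to that floor for the fit, and a gene was tested if it exceeded the pooled median of 475.55 on at least 3 arrays. Array medians lay between 448.4 and 496.4, and Spearman correlations were 0.876 to 0.960 between arrays of a time point and 0.803 to 0.940 across time points. Replicate 3 at 0 hours correlated least with the rest (mean 0.851). The log2 ratio of the 3′ to the 5′ Gapdh control probe sets, a measure of RNA quality, moved with time, from 0 hours through 2 hours and 3 days to 14 days, with means of 1.99 ± 0.29, 1.54 ± 0.46, 0.52 ± 0.50 and 0.21 ± 0.08 (SD, n = 3 each). Its part in any result was not tested.

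Of the 24 tested adhesion genes, 3 were called in at least 1 comparison with 0 hours, all of them up: alpha-catenin Ctnna1 at 2 hours, and P-cadherin Cdh3 and connexin43 Gja1 at 14 days. At 2 hours 1 of 24 was called, against 5.67% of all genes tested (4% up). At 3 days 0 of 24 were called by limma, against 13.3% of all genes. An unadjusted p under 0.05 was reached there by 1 of 24, against 1037 of all 3477 genes. At 14 days 2 of 24 were called, against 10.2% of all genes (6.9% up). The F-test over the 4 time points called Cdh3 alone (adjusted p = 0.0359), where 21.2% of all genes were called. These comparisons share the 0 hours arrays. Members whose 3 values did not overlap with those at 0 hours numbered 4 at 2 hours (2 above, 2 below), beside 23.4% of all genes (13.6% above, 9.78% below). They numbered 3 at 3 days (all below), beside 28.6% of all genes (16.6% above, 12% below), and 4 at 14 days (3 above, 1 below), beside 29.1% (17.4% above, 11.7% below). The 3 above at 14 days included Itgax, which passed the filter only with its 14 days arrays. Standard errors of the members lay between 0.18 and 0.34 on the log2 scale, which limits what 3 arrays a group could show.

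**Figure D1:**
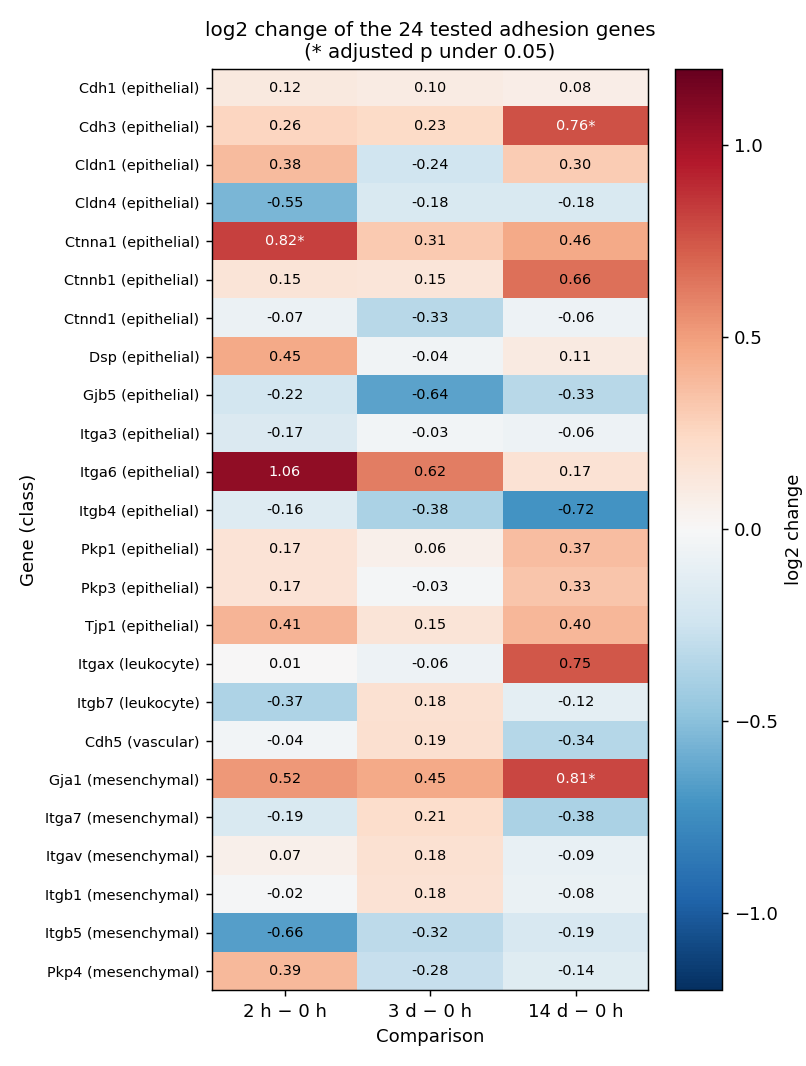
Log2 change of intensity of the 24 tested adhesion genes (down the page, grouped by class) at 2 hours, 3 days and 14 days against 0 hours, as colour and number; an asterisk marks an adjusted p under 0.05. The class printed as mesenchymal also holds muscle and widely used genes, and that printed as epithelial holds the catenins and Tjp1. The 3 marked cells are Ctnna1 at 2 hours (0.82) and Cdh3 (0.76) and Gja1 (0.81) at 14 days.

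Among classical cadherins, Cdh3 rose and Cdh1 did not pass the test. Cdh3 encodes P-cadherin, the cadherin of basal and hair follicle keratinocytes. Its intensity was 877.2, 725.0 and 639.2 at 0 hours, 952.7, 814.1 and 898.1 at 2 hours, 797.8, 860.9 and 947.1 at 3 days, and 1257.0, 1113.1 and 1414.0 at 14 days. The 3 arrays at 14 days stood above the 9 others, which overlapped among themselves. Cdh3 rose 1.70-fold at 14 days against 0 hours (log2 change 0.76 ± 0.18, limma adjusted p = 0.0183), with a change of 0.53 ± 0.18 at 14 days against 3 days (adjusted p = 0.174). The call was lost without 14 days replicate 1 (0.76, adjusted p = 0.0648), without 14 days replicate 3 (0.68, adjusted p = 0.0649), and in a fit of only these time points (adjusted p = 0.0725). Across the arrays left out in turn the change lay between 0.66 and 0.88. A weaker probe set of Cdh3 was above the floor on 2 of 12 arrays and gave no usable second reading.

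Cdh1, which encodes E-cadherin of epithelial cells in general, read 525.2, 481.3 and 826.9 at 0 hours, 561.4, 850.9 and 559.3 at 2 hours, 568.4, 774.9 and 586.0 at 3 days, and 785.5, 606.6 and 517.9 at 14 days. One array in each group was high, and the groups overlapped throughout. The changes were 0.12 ± 0.25, 0.10 ± 0.25 and 0.08 ± 0.25 at 2 hours, 3 days and 14 days against 0 hours, with the last bounded by −0.46 and 0.62 (95% interval).

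The catenins, which link cadherins to actin, gave 1 call. Ctnna1, the actin-binding alpha-catenin, read 827.3, 1416.8 and 901.5 at 0 hours, 1794.7, 1917.4 and 1691.2 at 2 hours, 1643.2, 1110.3 and 1104.3 at 3 days, and 1281.6, 1455.7 and 1468.4 at 14 days. All 3 arrays at 2 hours lay above all 9 others, and 0 hours replicate 2 lay apart from the other 0 hours arrays. Ctnna1 rose 1.77-fold at 2 hours against 0 hours (0.82 ± 0.23, limma adjusted p = 0.0472), with changes of 0.31 ± 0.23 at 3 days and 0.46 ± 0.23 at 14 days. The call stood close to the threshold: it was lost when any 1 of 10 of the 12 arrays was left out, and kept only without 0 hours replicate 2 or without 3 days replicate 1, with a change between 0.67 and 1.06 and an adjusted p between 0.00875 and 0.131. It was also lost under quantile normalization (adjusted p = 0.0542), a lower floor (0.0502), no filter (0.0891) and a fit of only these time points (0.139).

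Ctnnb1, beta-catenin, which also carries Wnt signals to the nucleus, read 1722.2, 3174.5 and 1236.5 at 0 hours, 1940.9, 2166.2 and 2215.6 at 2 hours, 2049.8, 1983.3 and 2262.8 at 3 days, and 2992.2, 3023.9 and 2931.4 at 14 days. The 14 days arrays lay close together and above the 2 hours and 3 days arrays, while 0 hours replicate 2 was higher than all of them. The change at 14 days against 0 hours was 0.66 ± 0.26 and not called (limma adjusted p = 0.118), and without 0 hours replicate 2 it was 1.03 and called (adjusted p = 0.00519). The same array was the highest of its group for Ctnna1, Gja1, Itga6, Dsp and Pkp1, and also for Itgav and Itgb1. For Cdh1 it was the lowest (481.3), and for Cdh3, Cldn1, Ctnnd1 and Itga3 it was not the highest. Its mean of 6 keratinocyte markers was 12.98 on the log2 scale, against 12.50 and 12.64 for the other 0 hours arrays. The part of this in the changes was not tested. Without 0 hours replicate 2 the members called were 3 at 2 hours (Ctnna1, Gja1 and Itga6) and 2 at 3 days (Gja1 and Itga6). At 14 days they were 5 (Cdh3, Ctnna1, Ctnnb1, Gja1 and Itgax), of which Itgax then exceeded the filter only on the 14 days arrays.

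The p120-catenin gene Ctnnd1, whose product steadies cadherins at the membrane, gave different answers from its probe sets. The brighter one, used in the fit, changed by −0.07, −0.33 and −0.06 at 2 hours, 3 days and 14 days against 0 hours. The dimmer one read 670.7, 777.8 and 788.5 at 14 days, against 352.0, 418.7 and 453.6 at 0 hours, and the groups did not overlap. In a fit of all single probe sets without a filter its change at 14 days was 0.87 ± 0.19 (limma adjusted p = 0.0443), so the direction for Ctnnd1 depended on the probe set.

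**Figure D2:**
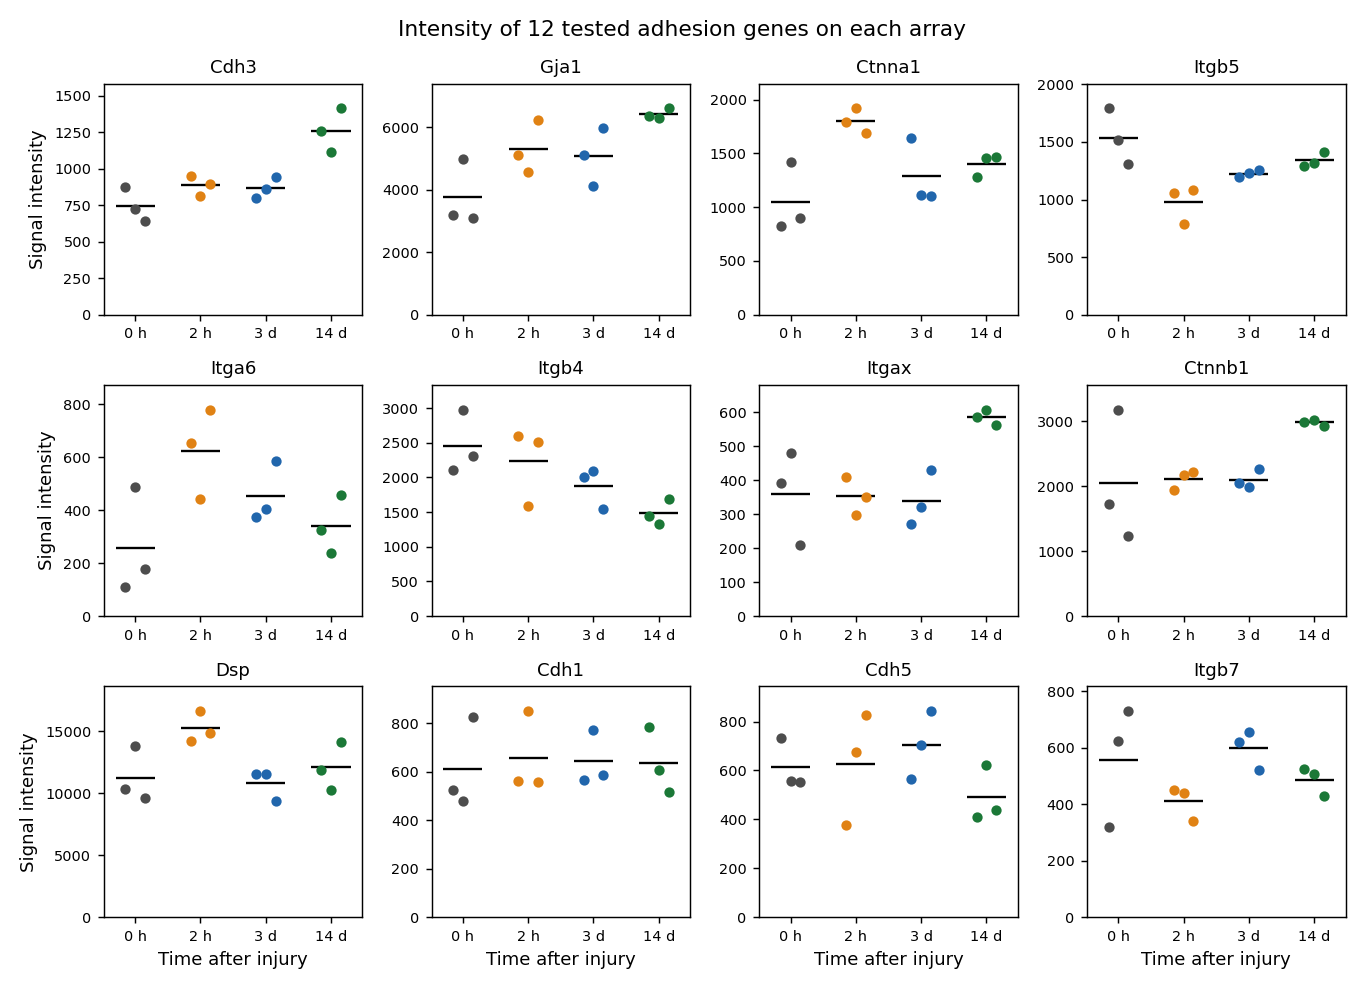
Signal intensity (linear scale, from 0) of 12 tested adhesion genes on each array at 0 hours, 2 hours, 3 days and 14 days; points are arrays, bars the mean of 3. Cdh3, Gja1 and Itgax are highest on the 14 days arrays, Ctnna1 on the 2 hours arrays, and Itgb4 is lowest at 14 days, while Cdh1 overlaps across all times.

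Of the desmosome genes, 4 were tested and none was called. Dsp encodes desmoplakin, which ties desmosomes to keratin filaments. Its intensity was 10368.7, 13843.0 and 9607.4 at 0 hours, 14253.3, 16635.5 and 14871.9 at 2 hours, 11542.3, 11588.1 and 9410.9 at 3 days, and 11896.9, 10255.4 and 14118.1 at 14 days. The 2 hours arrays lay above all 9 others, yet the change of 0.45 ± 0.20 against 0 hours was not called (limma adjusted p = 0.193), and neither was the change of −0.50 ± 0.20 at 3 days against 2 hours (adjusted p = 0.137).

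The plakophilins Pkp1 and Pkp3, desmosomal plaque proteins of the epidermis, changed by at most 0.37 in size in the comparisons with 0 hours. Pkp4, a more widely used relative, read 718.8, 523.4 and 408.5 at 3 days, against 874.7, 721.7 and 978.4 at 2 hours. These groups did not overlap, and the change of −0.67 ± 0.22 was not called (limma adjusted p = 0.0777), except without 3 days replicate 1. The desmosomal cadherins Dsg2, Dsc2 and Dsc3 and the plakophilin Pkp2 were above the floor on 6, 0, 1 and 2 of 12 arrays and were not tested.

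Tight junction genes showed no call among the 3 tested. Cldn4, a claudin of barrier epithelia, read 628.0, 663.3 and 604.1 at 2 hours, against 735.5, 1066.3 and 997.4 at 0 hours. The groups did not overlap, and the change was −0.55 ± 0.27 (limma adjusted p = 0.256). Tjp1, the scaffold ZO-1, changed by 0.41 ± 0.25, 0.15 ± 0.25 and 0.40 ± 0.25 at 2 hours, 3 days and 14 days, and Cldn1, the main claudin of the epidermal barrier, by 0.38 ± 0.34, −0.24 ± 0.34 and 0.30 ± 0.34. Cldn3 was above the floor on 4 of 12 arrays and was not tested.

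Of the gap junction genes, Gja1 and Gjb5 were tested and Gja1 was called. Gja1 encodes connexin43, a connexin of keratinocytes, fibroblasts and vessels. Its intensity was 3207.7, 4984.9 and 3097.0 at 0 hours, 5107.4, 4567.7 and 6222.5 at 2 hours, 5102.8, 4128.8 and 5993.9 at 3 days, and 6350.3, 6300.8 and 6607.3 at 14 days. The 14 days arrays agreed closely and lay above all 9 others, and the 2 hours and 3 days arrays overlapped with 0 hours replicate 2. Gja1 rose 1.75-fold at 14 days against 0 hours (0.81 ± 0.22, limma adjusted p = 0.0310), with changes of 0.52 ± 0.22 at 2 hours (adjusted p = 0.178) and 0.45 ± 0.22 at 3 days (adjusted p = 0.184). A dimmer probe set read 407.1, 472.9 and 519.0 at 14 days, against 191.7, 355.1 and 298.3 at 0 hours, also without overlap, with a change of 0.69 ± 0.26 that was not called in the fit of single probe sets (adjusted p = 0.174). The call of the brighter one was lost without 0 hours replicate 1 (0.71, adjusted p = 0.105), 0 hours replicate 3 (0.68, 0.0772), 14 days replicate 1 (0.81, 0.0896), 14 days replicate 2 (0.82, 0.0790) or 14 days replicate 3 (0.79, 0.0762), and in fits without the filter (0.0643) or of only these time points (0.0836).

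The 250 bases before the start of Gja1 are printed because Gja1 is the called gene whose promoter was at hand, in the RefSeq sequence of build GRCm38.p6, chr10:56377050-56377299, plus strand. Capitals mark the letters GAGGAAG read on the opposite strand, a motif of Ets factors such as PU.1, and TGANTCA, a motif of AP-1.
Gja1: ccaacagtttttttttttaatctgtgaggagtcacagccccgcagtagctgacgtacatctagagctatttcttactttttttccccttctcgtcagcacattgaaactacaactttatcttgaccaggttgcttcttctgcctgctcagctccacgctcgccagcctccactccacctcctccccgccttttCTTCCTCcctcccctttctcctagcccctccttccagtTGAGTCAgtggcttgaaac
The matches begin 57 and 19 bases before the start and do not overlap. Both strands of the 250 bases were searched for these letters and for the NF-kB motif GGGA, any base, TTTCC, in the 28 member genes found in the RefSeq table. GAGGAAG was found for 4 of them (Ctnnd1, Itgam, Gja1 and Itgav), beside 10.6% of all 32841 promoters, TGANTCA for 5 (Cldn4, Itgax, Gja1, Sele and Selp), beside 6.75%, and the NF-kB motif for 0, beside 0.356%.

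Gjb5, a connexin of the epidermis, read 703.9, 987.7 and 481.3 at 3 days, against 1207.4, 1288.3 and 821.5 at 0 hours. The groups overlapped in 1 array each way, and the change of −0.64 ± 0.27 was the only one of the 24 at 3 days with an unadjusted p under 0.05 (0.0321, limma adjusted p = 0.125). Gjb6, connexin30 of the differentiating epidermis, was too dim to pass the filter. None of the 6 arrays at 0 hours and 2 hours reached the floor, whereas it was above it at 3 days (352.0, 327.8 and 388.4), and at 425.0, 186.9 and 271.7 at 14 days. At 3 days it was at least 1.58-fold higher than at 0 hours (0.66 ± 0.19), without a call in the fit of all 5599 genes (adjusted p = 0.0856). Its other probe set was above the floor on 2 of 12 arrays, both at 3 days (288.1 and 247.3).

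Of the integrins of the epidermal basement membrane, Itga6, Itgb4 and Itga3 were tested, and none was called in the fit of all 12 arrays. Itga6 and Itgb4 encode the alpha6 and beta4 chains of the hemidesmosomal integrin. Itga6 read 110.8, 485.3 and 176.5 at 0 hours, 653.7, 440.2 and 778.6 at 2 hours, 373.6, 404.3 and 586.5 at 3 days, and 326.0, 238.8 and 455.5 at 14 days. Replicates 1 and 3 at 0 hours were under the floor and below every later array, but replicate 2 was not. The changes were 1.06 ± 0.33 at 2 hours (limma adjusted p = 0.0715), 0.62 ± 0.33 at 3 days (adjusted p = 0.226) and 0.17 ± 0.33 at 14 days (adjusted p = 0.776), and without 0 hours replicate 2 those at 2 hours and 3 days were 1.43 (adjusted p = 0.0141) and 0.98 (adjusted p = 0.0461).

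Itgb4 read 2101.4, 2976.5 and 2302.3 at 0 hours, 2602.5, 1587.3 and 2504.1 at 2 hours, 2005.2, 2090.3 and 1547.0 at 3 days, and 1439.7, 1328.2 and 1693.6 at 14 days. The 14 days arrays were all below the 0 hours arrays. The change of −0.72 ± 0.23 at 14 days missed the threshold (limma adjusted p = 0.059), and it was called under quantile normalization (−0.77, adjusted p = 0.0377), median scaling (−0.78, adjusted p = 0.0466), a stricter filter (adjusted p = 0.0461), a trended variance (adjusted p = 0.0497), and without 2 hours replicate 2 (adjusted p = 0.0404). Itga3, the alpha3 chain of a laminin-binding integrin of keratinocytes, changed by −0.17, −0.03 and −0.06, and its dimmer probe set by 0.00, 0.42 and 0.40, with none called.

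Integrins of mesenchymal and other cells included 1 near the threshold. Itgb5, the beta5 chain of a vitronectin receptor, read 1790.8, 1512.2 and 1309.7 at 0 hours, 1053.3, 791.7 and 1080.8 at 2 hours, 1197.1, 1226.1 and 1252.4 at 3 days, and 1290.9, 1318.0 and 1408.7 at 14 days. The 2 hours and 3 days arrays lay below all 0 hours arrays. The change at 2 hours was −0.66 ± 0.18 (limma adjusted p = 0.0503), and those at 3 days and 14 days were −0.32 ± 0.18 and −0.19 ± 0.18.

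Itgb1 encodes the beta1 chain shared by most collagen, laminin and fibronectin receptors. Its brighter probe set read 5115.2, 7585.9 and 4414.5 at 0 hours, 5334.2, 5245.6 and 5930.1 at 2 hours, 5952.8, 5559.3 and 7460.1 at 3 days, and 5728.7, 5180.6 and 4915.7 at 14 days. All later arrays fell within the span of the 0 hours arrays, and the changes were −0.02, 0.18 and −0.08 (SE 0.21 each). The dimmer probe set read 1608.9, 1532.6 and 1707.9 at 3 days, against 1339.9, 1332.6 and 808.4 at 0 hours, without overlap and without a call (0.51 ± 0.21, limma adjusted p = 0.192 among single probe sets). Itgav, the alphav chain, and Itga7, the laminin-binding alpha7 chain of muscle, changed by at most 0.18 and 0.38 in size against 0 hours. Itga7 read 461.8, 314.9 and 428.4 at 14 days, against 577.1, 586.7 and 635.5 at 3 days, with no overlap and a change of −0.60 ± 0.23 (adjusted p = 0.265).

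**Figure D3:**
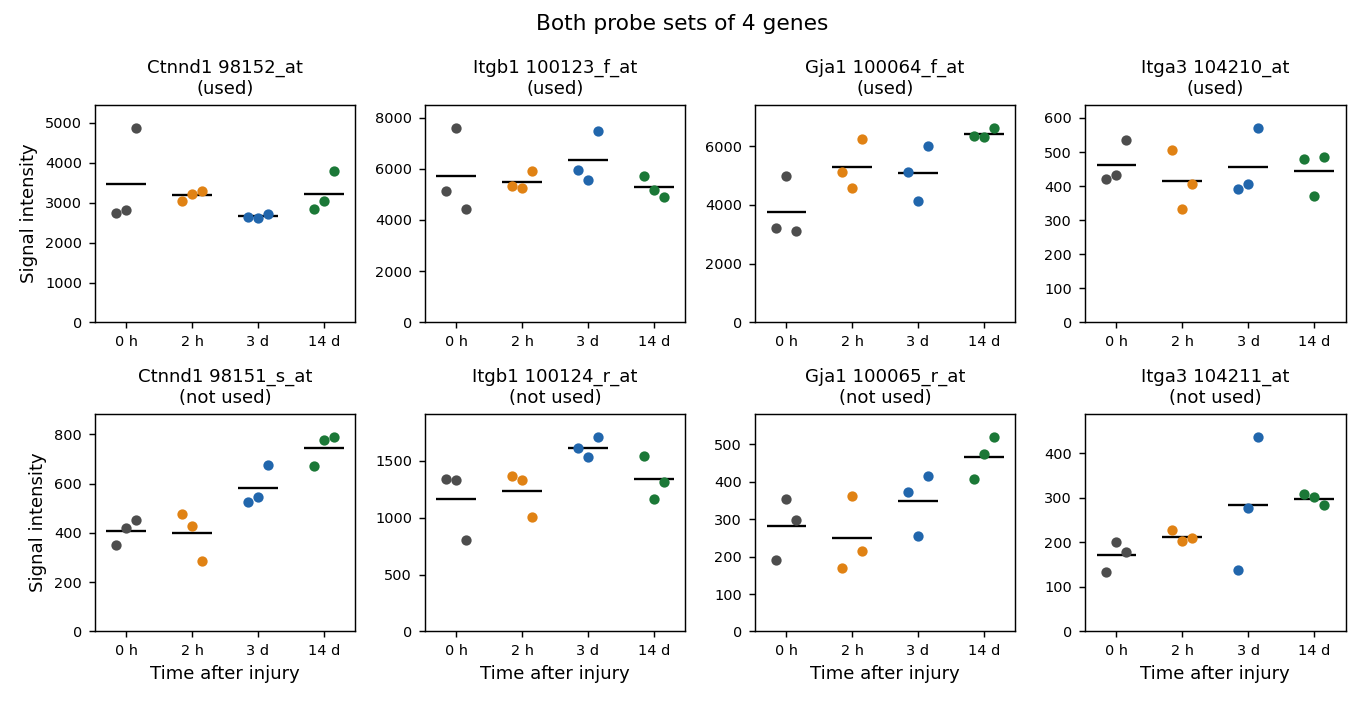
Signal intensity of 2 probe sets each of Ctnnd1, Itgb1, Gja1 and Itga3 (top: used in the fit; bottom: not used) on each array at the 4 time points; points are arrays, bars the mean of 3. Both Gja1 probe sets are highest at 14 days, whereas the unused Ctnnd1 probe set is higher at 14 days than at 0 hours and the used one is not. Intensities of different probe sets are not comparable.

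Leukocyte integrins gave no call and were mostly at the edge of detection, although leukocyte markers rose. Of 14 leukocyte markers listed 10 were tested, all 10 rose at 3 days against 0 hours, and their mean over time, from 0 hours through 2 hours and 3 days to 14 days, was 9.74, 9.77, 11.36 and 10.14 on the log2 scale. In bulk skin, a change in the number of cells of a type and a change in RNA per cell cannot be told apart. Of the 5 leukocyte integrins with a probe set, Itgax and Itgb7 were tested. Itgb2, Itgam and Itga4 were above the floor on 7, 2 and 1 of 12 arrays.

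Itgax encodes CD11c, the alpha chain of an integrin of dendritic cells and macrophages. It read 390.9, 479.0 and 208.6 at 0 hours, 409.7, 297.2 and 351.9 at 2 hours, 269.9, 320.2 and 430.7 at 3 days, and 586.4, 607.5 and 561.5 at 14 days. The 14 days arrays lay above all 9 others, and the first 3 time points overlapped. The changes were 0.75 ± 0.26 at 14 days against 0 hours (limma adjusted p = 0.0775) and 0.81 ± 0.26 at 14 days against 3 days (adjusted p = 0.138), neither called. Only 0 hours replicate 2 and the 3 arrays at 14 days exceeded 475.55, so Itgax passed the filter through the time point where it was highest, and its values at 14 days are given as a description. The same holds for the calls it gave with 1 array left out, at 14 days against 0 hours without 0 hours replicate 2 (0.98, adjusted p = 0.0283) and at 14 days against 3 days without 0 hours replicate 3. The leukocyte marker mean was 11.36 at 3 days and 10.14 at 14 days on the log2 scale, and its part in the values of Itgax was not tested.

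Itgb7, the beta7 chain of gut-homing and intraepithelial lymphocytes, read 320.7, 623.4 and 730.4 at 0 hours, 451.1, 440.0 and 340.4 at 2 hours, 620.3, 656.9 and 522.8 at 3 days, and 526.8, 508.3 and 428.3 at 14 days. The 0 hours arrays spanned all later values. The changes against 0 hours were −0.37, 0.18 and −0.12 (SE 0.26 each), and 0.55 ± 0.26 at 3 days against 2 hours, without overlap (limma adjusted p = 0.205).

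Itgb2, the beta2 chain of the leukocyte integrins LFA-1 and Mac-1, read 222.6, 392.3 and 655.0 at 3 days, against 219.8, 297.9 and 88.7 at 0 hours. The 3 days arrays varied widely and replicate 1 was within the 0 hours values. In the fit of all 5599 genes the change was 0.65 (95% interval −0.17 to 1.46, limma adjusted p = 0.33). Itgam, the alpha chain CD11b of Mac-1 on neutrophils and macrophages, was above the floor only on 3 days replicates 2 (231.4) and 3 (485.8), with 3 days replicate 1 at 48.4 and all 0 hours arrays at 135.8 or less. On 3 days replicates 1, 2 and 3 the leukocyte marker mean was 11.06, 11.30 and 11.71, and the muscle marker mean 13.43, 13.15 and 12.17. The Gapdh log2 ratio was 1.05, 0.47 and 0.05 on the same arrays. The part of these in the Itgam values was not tested. Itga4, the alpha4 chain of VLA-4, was above the floor only on 0 hours replicate 3 (260.1).

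The promoters of Itgam and Itgax are printed as those of the integrins of myeloid cells, from RefSeq in build GRCm38.p6, plus strand. Itgam lies at chr7:128062390-128062639 with GAGGAAG in capitals, and Itgax at chr7:128129300-128129549 with TGANTCA in capitals.
Itgam: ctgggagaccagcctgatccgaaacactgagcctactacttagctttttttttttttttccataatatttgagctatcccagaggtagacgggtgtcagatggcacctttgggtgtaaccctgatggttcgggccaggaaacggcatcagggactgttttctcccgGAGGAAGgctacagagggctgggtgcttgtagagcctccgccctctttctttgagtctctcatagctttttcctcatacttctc
Itgax: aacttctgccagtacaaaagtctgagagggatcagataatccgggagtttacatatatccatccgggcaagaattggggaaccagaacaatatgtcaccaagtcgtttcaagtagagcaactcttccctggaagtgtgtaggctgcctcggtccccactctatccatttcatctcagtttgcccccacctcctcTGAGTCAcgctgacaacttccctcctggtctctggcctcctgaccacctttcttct
The match begins 84 bases before the start in Itgam and 56 bases before it in Itgax. A match is a string of letters and not a measured binding site.

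Vascular adhesion genes were also near the floor, and only Cdh5 of 6 was tested. Cdh5, VE-cadherin of endothelial junctions, read 734.7, 558.6 and 554.8 at 0 hours, 377.2, 676.7 and 825.8 at 2 hours, 566.3, 705.5 and 842.5 at 3 days, and 409.8, 621.1 and 440.7 at 14 days. The groups overlapped at every time, and the changes against 0 hours were −0.04, 0.19 and −0.34 (SE 0.28 each), with −0.53 ± 0.28 at 14 days against 3 days (limma adjusted p = 0.525). The mean of 5 other endothelial markers was 9.74, 9.68, 10.02 and 9.87 on the log2 scale at 0 hours, 2 hours, 3 days and 14 days. Cldn5, the claudin of endothelial tight junctions, was above the floor on all 12 arrays and read 382.9, 325.6 and 298.5 at 14 days, against 531.0, 362.2 and 462.5 at 0 hours. These overlapped in 1 array, with a change of −0.42 ± 0.17 in the fit of all 5599 genes (adjusted p = 0.19).

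Icam1, the endothelial and epithelial ligand of beta2 integrins, read 179.1, 286.1 and 133.7 at 0 hours, 346.5, 295.2 and 190.9 at 2 hours, 261.5, 328.4 and 505.8 at 3 days, and 144.0, 165.4 and 194.8 at 14 days. All 3 arrays were above the floor at 3 days and all 3 under it at 14 days. The change was 0.53 ± 0.24 at 3 days against 0 hours (limma adjusted p = 0.229) and −0.64 ± 0.24 at 14 days against 3 days (adjusted p = 0.363), neither called in the fit of all 5599 genes. Vcam1, the ligand of alpha4 integrins, was above the floor on 4 of 12 arrays with a highest value of 344.4 at 14 days, and its other probe sets were under it on all 12.

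The selectins start the rolling of leukocytes on endothelium. Selp, P-selectin, was above the floor on 2 arrays, at 518.7 on 2 hours replicate 2 and 266.1 on 3 days replicate 3, with 193.6 and 99.7 on the other 2 hours arrays and 87.0, 39.1 and 80.7 at 0 hours. Sele, E-selectin, was under the floor on all 12 arrays, with a highest value of 148.4. At this brightness no difference in either gene could be measured between the time points. Pecam1, Itgal and Icam2 were not analysed here.

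**Figure D4:**
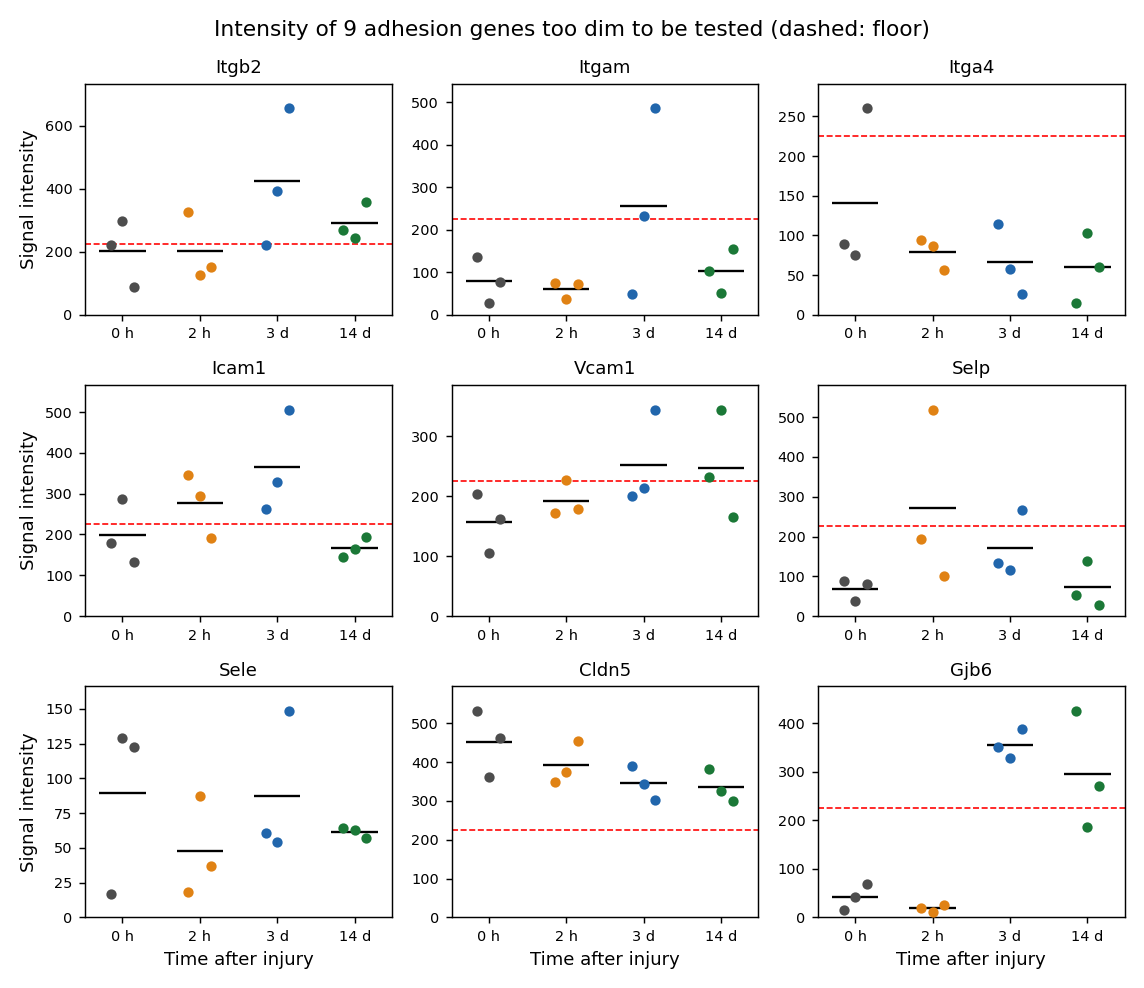
Signal intensity of 9 adhesion genes too dim to be tested, on each array at the 4 time points; points are arrays, bars the mean of 3, and the dashed line is the floor of 225.375, under which values have no order. Gjb6 exceeds the floor on the 3 arrays at 3 days and is under it on the 6 arrays at 0 hours and 2 hours, Icam1 is above it on all 3 arrays at 3 days, and Sele is under it throughout.

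Over the 22 members that were too dim for the filter, a fit of all 5599 genes called 0 in each of the 5 comparisons, where 2.54%, 5.25% and 4.3% of all genes were called at 2 hours, 3 days and 14 days against 0 hours, 3.11% at 3 days against 2 hours and 1.13% at 14 days against 3 days. Unadjusted p-values under 0.05 were reached by 1, 3, 2, 1 and 2 of them in that order of comparisons. The share of all 5599 genes under that p was not counted, so nothing is read from these counts. The smallest adjusted p was that of Gjb6 at 3 days, that of Cdh13, the cadherin without an intracellular tail, at 2 hours (−0.64 ± 0.21, limma adjusted p = 0.155) and that of Cldn5 at 14 days. Cdh13 read 220.7, 275.9 and 160.5 at 2 hours, against 325.6, 392.9 and 411.2 at 0 hours, without overlap. Ctnnd2, a catenin of neurons, read 213.2, 249.9 and 253.7 at 3 days, against 361.0, 317.5 and 334.0 at 0 hours, also without overlap (−0.47 ± 0.17, adjusted p = 0.139). Like Sele, the genes of N-cadherin (Cdh2) and desmocollin-2 (Dsc2) were under the floor on all 12 arrays, and the other 19 were above it on 1 to 12 arrays.

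Set side by side, the class medians against 0 hours were all under 0.4 in size. The epithelial class also holds Ctnna1, Ctnnb1, Ctnnd1 and Tjp1, whose use by other cell types was not examined. Of 15 epithelial genes 10, 7 and 10 were higher at 2 hours, 3 days and 14 days than at 0 hours, beside 1891, 1799 and 1939 of all 3477 genes. The median log2 change of the 15 was 0.17, −0.03 and 0.17 in that order, beside medians of 0.05, 0.02 and 0.05 over all genes tested. The sign at 3 days turned without 0 hours replicate 2 (0.11), 3 days replicate 2 (0.04) or 3 days replicate 3 (0.055) and with the highest-variance probe set (0.063), and leaving out 0 hours replicate 1 brought the 2 hours and 14 days medians to 0.03 and 0.06. The 6 mesenchymal, muscle and widely used genes had medians of 0.02, 0.18 and −0.12. The first turned under quantile normalization (−0.025) and without 0 hours replicate 1 (−0.057), 0 hours replicate 3 (−0.082) or 2 hours replicate 3 (−0.063), the second without 0 hours replicate 3 (−0.005) and the third without 0 hours replicate 2 (0.061). The 2 leukocyte genes had −0.18, 0.06 and 0.32, of which the value at 3 days was −0.076 without 0 hours replicate 1. The value at 14 days includes Itgax, which passed the filter only with its 14 days arrays. The 1 vascular gene had −0.04, 0.19 and −0.34, of which the value at 2 hours was 0.096 without 0 hours replicate 1 and 0.292 without 2 hours replicate 1. With 2 and 1 tested genes, the leukocyte and vascular classes rest on the single genes described above.

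Between the later time points no member was called. At 3 days against 2 hours 0 of 24 were called by limma, where 9.4% of all genes were called. An unadjusted p under 0.05 was reached by 3 (Dsp, Ctnna1 and Pkp4), beside 881 of all 3477 genes. Of 15 epithelial genes 13 were lower at 3 days than at 2 hours, where 1874 of all 3477 genes were lower. The 13 include Ctnnb1, Cdh1 and Cdh3, with changes of −0.006, −0.02 and −0.03. The median of the 15 was −0.22, beside −0.03 over all genes. That median was −0.12 without 2 hours replicate 1, where 4 of 15 were higher, and −0.13 without 3 days replicate 3, and 5 of 15 were higher without 3 days replicate 1. The 4 desmosome genes tested changed by −0.10 ± 0.27 (Pkp1) to −0.67 ± 0.22 (Pkp4). The 3 catenins tested changed by −0.006 ± 0.26 (Ctnnb1) to −0.51 ± 0.23 (Ctnna1). The changes of Pkp1, Pkp3 and Ctnnb1 were smaller than their standard errors, so their signs are not read. Dsp, Pkp4, Ctnna1 and Ctnnd1 had groups without overlap. Members without overlap numbered 6 (2 above, 4 below), beside 35.2% of all genes (16.7% above, 18.5% below). At 14 days against 3 days 0 of 24 were called, where 3.39% of all genes were called. An unadjusted p under 0.05 was reached by 3 (Cdh3, Itgax and Itga7), beside 408 of all 3477 genes. Here 10 of 15 epithelial genes were higher, where 2002 of all 3477 genes were higher. The median of the 15 was 0.24 beside 0.05 over all genes, and it was 0.12 without 3 days replicate 3 and 0.15 without 14 days replicate 3. Of 9 integrins 7 were lower, where 1474 of all 3477 genes were lower. The median of the 9 was −0.27 and lay between −0.31 and −0.21 with any 1 array left out. Groups without overlap numbered 7 (6 above, 1 below), beside 19.7% of all genes (10.7% above, 9% below). The 6 above were Cdh3, Gja1, Ctnnb1, Ctnnd1, Itgb5 and Itgax, of which Itgax passed the filter only with its 14 days arrays.

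Genes of the same junctions and adhesion steps that the symbols do not catch were followed as partners. Of 63 such partners listed, 43 had a probe set and 36 were tested. At 2 hours 3 rose and 0 fell, at 3 days 6 rose and 0 fell, and at 14 days 3 rose and 0 fell. These counts of 36 lay near the 5.67%, 13.3% and 10.2% of all genes called in either direction, and nothing is read from them about the partners as a list. The median changes were 0.12, 0.20 and 0.12, beside 0.05, 0.02 and 0.05 over all genes.

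Selplg encodes PSGL-1, the selectin ligand on leukocytes. It read 1530.4, 1665.2 and 2313.9 at 3 days, against 718.9, 764.7 and 601.6 at 0 hours. All 3 days arrays were above all other arrays, and Selplg rose 2.61-fold (1.39 ± 0.25, limma adjusted p = 0.00212) in a call kept with any 1 array left out. At 14 days it read 967.1, 890.6 and 854.1, a change of −1.001 ± 0.246 against 3 days (adjusted p = 0.0365). That call was lost in 6 of 12 cases with 1 array left out: without 2 hours replicate 3 (adjusted p = 0.058), 3 days replicate 2 (0.0881), 3 days replicate 3 (0.181), 14 days replicate 1 (0.0769), 14 days replicate 2 (0.136) or 14 days replicate 3 (0.136). Its receptors Selp and Sele were at or near the floor, as given above, and the rise went with that of the leukocyte markers, whose part in it was not tested.

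F11r encodes JAM-A, a tight junction protein of epithelium and endothelium that also binds a beta2 integrin. It read 568.4, 790.1 and 519.3 at 0 hours, 822.1, 785.4 and 1050.2 at 2 hours, 1296.3, 1210.7 and 1250.2 at 3 days, and 1472.7, 1347.9 and 1055.5 at 14 days. Every array at 3 days and 14 days was above every earlier array. F11r rose 2.03-fold at 3 days (1.02 ± 0.21, limma adjusted p = 0.00526) and 2.08-fold at 14 days (1.06 ± 0.21, adjusted p = 0.0076), and both calls were kept with any 1 array left out.

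Jup encodes plakoglobin, the catenin of desmosomes and adherens junctions. It read 1879.2, 1805.6 and 2927.7 at 0 hours, 3447.1, 3472.7 and 3785.9 at 2 hours, 2654.2, 5801.9 and 5242.0 at 3 days, and 4641.0, 5384.7 and 7014.3 at 14 days. The 14 days arrays were above all 0 hours and 2 hours arrays, and 3 days replicate 1 was within the 0 hours values. Jup rose 2.60-fold at 14 days (1.38 ± 0.28, limma adjusted p = 0.00893), kept with any 1 array left out, beside changes of 0.76 for Cdh3, 0.66 for Ctnnb1 and 0.11 for Dsp, of which Cdh3 was called. Its call at 3 days (1.01 ± 0.28, adjusted p = 0.0293) was lost without 0 hours replicate 1 (0.0886) or 2 (0.0771) and without 3 days replicate 2 (0.123) or 3 (0.127).

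Among partners of the alpha6 beta4 integrin in hemidesmosomes, Col17a1 was called at 2 hours and Lama3 at 3 days, while Plec, Cd151 and Lamb3 were not called. Col17a1, the hemidesmosomal collagen BP180, read 11996.7, 10984.8 and 14547.4 at 2 hours, against 5228.3, 7930.2 and 4134.5 at 0 hours, and rose 2.24-fold without overlap (1.16 ± 0.24, limma adjusted p = 0.0118). The call was lost without 2 hours replicate 3 (0.0693). Lama3, a chain of the laminin that the integrin binds, read 1163.7, 1324.8 and 1266.2 at 3 days, against 481.0, 608.2 and 682.9 at 0 hours. It rose 2.14-fold without overlap (1.10 ± 0.26, adjusted p = 0.0141), a call lost without 0 hours replicate 1 (0.055) or 3 days replicate 3 (0.0532). At 3 days Plec read 1003.6, 1030.6 and 1437.5, against 1981.2, 1238.5 and 1796.6 at 0 hours. Lamb3 read 1788.2, 1677.0 and 1692.0 at 3 days, against 970.7, 1561.6 and 883.0. Cd151 read 1852.5, 2159.1 and 2026.0 at 14 days, against 2915.4, 2146.8 and 3041.5 at 0 hours.

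The other partners called against 0 hours were Msn, Vasp, Vcl and Ezr, while Tln1 (talin), Rdx (radixin), Actn1, Actn4, Pxn and Ilk, which also act between adhesion sites and actin, were not called. Tln1 changed by −0.36 ± 0.17, −0.30 ± 0.17 and −0.31 ± 0.17 at 2 hours, 3 days and 14 days (limma adjusted p of 0.241 or more). Msn, moesin, rose at 3 days (1.28 ± 0.27, limma adjusted p = 0.00742), a call kept with any 1 array left out. It rose also at 14 days (0.98 ± 0.27, adjusted p = 0.0349), a call lost without 0 hours replicate 1 (0.137) or 3 (0.0745) or any of 14 days replicates 1 (0.149), 2 (0.0561) and 3 (0.0571). Vasp, an actin regulator of focal adhesions, rose at 3 days (1.19 ± 0.29, adjusted p = 0.0159), and lost the call without 0 hours replicate 1 (0.0644), 3 days replicate 2 (0.0533) or 3 days replicate 3 (0.0893). Vcl, vinculin, which binds alpha-catenin and talin, read 2221.4, 1718.5 and 2359.3 at 2 hours, against 1299.1, 1445.3 and 820.8 at 0 hours. It rose 1.80-fold without overlap (0.85 ± 0.24, adjusted p = 0.0486) in a call close to the threshold, lost in 10 of 12 cases with 1 array left out (adjusted p up to 0.186) and kept without 0 hours replicate 2 or 14 days replicate 1. Ezr, ezrin, read 1498.2, 1160.2 and 1382.6 at 2 hours, against 833.9, 913.8 and 690.8 at 0 hours, and rose without overlap (0.73 ± 0.19, adjusted p = 0.0415) in a call lost in 8 of 12 cases with 1 array left out (adjusted p up to 0.14).

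**Figure D5:**
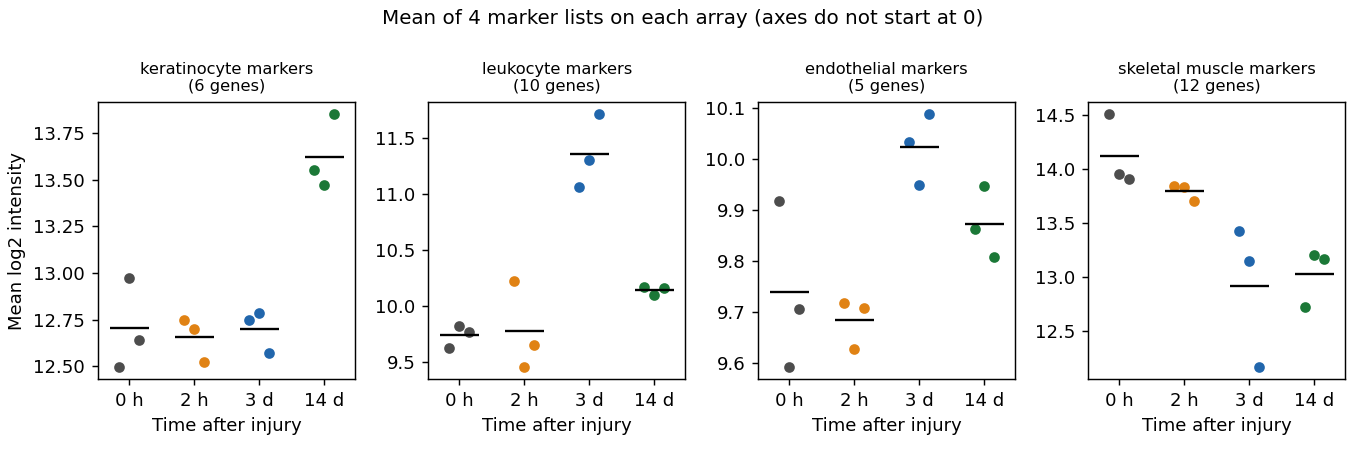
Mean log2 intensity of 4 lists of cell type markers on each array at the 4 time points; points are arrays, bars the mean of 3, and the axes do not start at 0. The leukocyte mean is highest at 3 days, the keratinocyte mean at 14 days, and the muscle mean is lower at the later times, 3 days and 14 days.

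The means of several cell type marker lists also differed between the time points. The mean of 6 keratinocyte markers of 11 listed was 12.70 ± 0.25, 12.66 ± 0.12, 12.70 ± 0.11 and 13.62 ± 0.20 over the 4 time points in order (log2, SD, n = 3 each), highest at 14 days as were Cdh3, Gja1 and Jup. At 14 days against 0 hours 2 of the 6 rose, Krt1 (2.19 ± 0.25) and Flg (2.82 ± 0.24) of differentiating keratinocytes, while Krt10 changed by 0.06 ± 0.20. The median change of the 6 was 0.25, so the higher mean at 14 days came mostly from Krt1 and Flg. Krt5 and Krt14, also listed, had no probe set that names 1 symbol. The mean of 12 skeletal muscle markers was 14.12 ± 0.33, 13.80 ± 0.08, 12.92 ± 0.66 and 13.03 ± 0.27 in the same order, and Itga7, the integrin of muscle, was not called. The mean of 7 fibroblast markers was 13.12 ± 0.02, 12.83 ± 0.07, 13.02 ± 0.11 and 13.17 ± 0.15, and of 10 T cell markers only Thy1, which other skin cells also express, had a probe set. Of the defining endothelial markers Tie1, Flt1 and Tek were above the floor on 11, 8 and 3 of 12 arrays, and the pan-leukocyte gene Ptprc on 6 of 12. The part of these markers in the changes of Cdh3 and Gja1 was not tested.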

How the data were processed

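The deposited values are intensity, 1 signal for each probe set and array, without detection calls; for the authors' scaling and software the sources used here say nothing. Of 7275 probe sets, 6551 named 1 symbol, 251 several (2 of these hold member symbols and were not used as genes) and 446 none, besides 27 control probe sets. Trimmed means of the arrays deviated by at most 8.56%, so no scaling was added. Deposited intensity was floored at 225.375 and log2-transformed. Probe sets above 475.55 on at least 3 arrays were kept, the one with the highest mean standing for its gene. A single model over 12 arrays, a term for each time point, was fitted in limma 3.58.1 under R 4.3.3 (degrees of freedom: residual 8, prior 6.64). With 3 against 3 arrays the smallest p of an exact test is 0.1. The procedure was tested on simulated data. Alternatives were another normalization, floor, filter, probe set choice or variance prior, a replicate block, fits of 2 time points, and each array left out in turn.

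The members, classes and marker and partner lists were chosen with earlier results of these data known. Cldnd1, with a claudin-like symbol, and Itgb1bp1 were set apart from the classes. Named genes are all called members, the 3 smallest p-values per class in each comparison with 0 hours, and a fixed list of junction, integrin and selectin genes. Partners named by rule were the 6 with the smallest p. The partners Vasp, Vcl, Ezr, Tln1, Rdx, Actn1, Actn4, Pxn, Ilk, Plec, Cd151 and Lamb3 were named after their values were seen. So were the members Ctnnd1, Itgb5, Pkp1, Pkp3, Pkp4, Cldn1, Cldn4, Tjp1, Itga3, Itga7, Itgav, Gjb6, Cldn5 and Cdh13, with the other dim members. Promoters were matched to RefSeq by symbol for 28 of 46 genes (32 promoters). Replicate numbers were checked for pairing: deviations of same-numbered arrays correlated over 0.1 in 2 of 18 pairs, with a median of −0.066. The labels do not say if the numbers pair samples, and with 3 arrays a group this check cannot exclude it. No 2 arrays held identical values. Figures were drawn with Python 3.11.15 and matplotlib 3.10.9.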

Additional observations from a re-analysis of the deposited data

How the results depend on the processing

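Of the tested members, the counts called depended on the processing. At 2 hours the count of 1 was 0 with the floor at the 10th percentile (113.69), the highest-variance probe set, the replicate block or only the 2 time points compared, and 2 (Ctnna1 and Itgb5) with the floor at the 40th percentile (360.7), a filter at the 75th percentile or a trended variance; it was 1 under quantile normalization and without the filter, where the gene was Itgb5. At 14 days the count of 2 was 1 without the filter and 0 with only the 2 time points compared. It was 3 under quantile normalization, median scaling, a filter at the 75th percentile and a trended variance, each with Itgb4 down. It was also 3 with the highest-variance probe set, with Ctnnd1 up. That setting picks probe sets by their variance over all 12 arrays, which favours differences between time points. The Ctnnd1 probe set it took exceeded the 475.55 of the filter on all 3 days and 14 days arrays and on none at 0 hours (352.0 to 453.6). Its call there is given as a description. By the F-test the count of 1 was 2 under quantile normalization, the floor at the 40th percentile and the highest-variance probe set, and 0 under median scaling and the replicate block. Replicate numbers do not pair samples here, and with the replicate block 0 members were called at 2 hours and 2 at 14 days. With each array left out in turn the counts ran from 0 to 3 at 2 hours, 0 to 2 at 3 days, 0 to 5 at 14 days, 0 to 1 in each later comparison and 0 to 6 by the F-test. Signs turned for uncalled genes near 0. They were Itgax at 2 hours with the floor at the 40th percentile (−0.11), Itgb1 at 2 hours and 14 days with the highest-variance probe set (0.12 and 0.24), Cdh1 at 14 days under quantile normalization (−0.007) and Itga6 at 14 days with the floor at the 40th percentile (−0.03). With 1 array left out, the changes at 2 hours ran from −0.31 to 0.24 for Itgax, −0.27 to 0.29 for Cdh5, −0.18 to 0.21 for Itgb1, −0.15 to 0.53 for Ctnnb1, −0.29 to 0.069 for Itgb4 and −0.083 to 0.36 for Cdh1. At 3 days they ran from −0.37 to 0.17 for Itgax, −0.18 to 0.42 for Itgb7, −0.16 to 0.52 for Ctnnb1, −0.05 to 0.34 for Cdh1 and −0.15 to 0.11 for Dsp. At 14 days they ran from −0.47 to 0.12 for Itgb7, −0.24 to 0.15 for Itgb1, −0.082 to 0.32 for Cdh1, −0.011 to 0.26 for Dsp and −0.061 to 0.54 for Itga6. The cause of these differences was not tested. The changes of Cdh3, Gja1 and Ctnna1 kept their sign under every alternative run. Partner genes were put through the same alternatives, chosen after seeing the data. Dim signal kept 22 of 46 members from being tested, among them 5 of 6 vascular and 3 of 5 leukocyte genes.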
